A study of Mus musculus with 12 samples.

Results

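Trp53inp1 and Phlda3 are 2 genes that the transcription factor p53 switches on. They were taken as every probe set whose gene entry in the authors' deposited lists reads Trp53inp1 or Phlda3, which gave 2 of the 45037 probe sets other than controls, 1416926_at for Trp53inp1 and 1449002_at for Phlda3. RNA came from brain regions dissected at postnatal day 21 from Ercc1-/- mice (KO) and wild type Ercc1+/+ littermates (WT), all bred from FVB and C57BL/6 crosses. The 12 arrays form 4 groups of 3, which are KO hippocampus, WT hippocampus, KO cerebellum and WT cerebellum. Each value is a linear dChip intensity of 1 probe set on 1 Affymetrix Mouse Genome array, and the number of arrays limits the precision. The labels give the genotype with no treatment, transgene or Cre, and the tissue was whole hippocampus or cerebellum, so each value mixes neurons, glia and vessels.

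p53 is held low in undamaged cells and accumulates when DNA is broken or left unrepaired. It then activates genes for cell cycle arrest, repair, metabolism and cell death. Ercc1 forms with Xpf a nuclease that cuts out bulky lesions and also acts on crosslinked DNA strands. The protein of Trp53inp1 acts in the nucleus with p53 and the kinase Hipk2 under stress, and in the cytoplasm it binds LC3 proteins of the autophagosome. Phlda3 encodes a small protein made almost wholly of a pleckstrin homology domain, which competes with the kinase Akt for membrane lipids and so restrains Akt.

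The letters before the start of Phlda3 are shown because p53 is known to act through DNA sites near its target genes, and they come from the RefSeq table of build GRCm38.p6. The first stretch is the 250 bases before the gene start, chr1:135765835-135766084 on the plus strand. The second is a stretch of 30 bases after the start, chr1:135766105-135766134, in which capitals mark CATG, the letters at the core of many p53 sites.
Phlda3 before the start: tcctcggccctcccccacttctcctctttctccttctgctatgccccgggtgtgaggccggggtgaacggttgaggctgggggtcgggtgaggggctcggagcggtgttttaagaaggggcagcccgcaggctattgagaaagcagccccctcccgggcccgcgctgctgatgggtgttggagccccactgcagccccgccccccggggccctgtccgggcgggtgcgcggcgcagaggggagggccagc
Phlda3 after the start: gcggcgcaggaggcgagcggtggaaCATGt
CATG, which reads the same on both strands, occurred 0 times before the start and 1 time after it, at bases 46 to 49 counted from 1 at the start. Windows of 300 bases around the start held CATG in 64.8% of 27025 genes. The p53 half-site consensus, searched on both strands, was absent from the Phlda3 window and present in 9.55% of the 27025 genes. Of the 51 genes of the p53 list, 42 had such a window, and 18 of these held CATG and 13 the half-site consensus. A match is a description of letters, not a binding site. Neither Trp53inp1 nor Phlda3 lies on the chromosome that carries Ercc1.

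The arrays differed in ways that the groups do not account for. Median intensities ran from 160.2 to 168.2 on hippocampus arrays and from 154.4 to 168.2 on cerebellum arrays. The first principal component of the hippocampus arrays carried 59.6% of their variance and set KO 1, KO 3 and WT 1 apart from KO 2, WT 2 and WT 3, a line that crosses genotype. Among cerebellum arrays, that of KO replicate 1 had the highest ratio of 3' to 5' Gapdh signal, 1.497, and the remaining 5 had 0.999 to 1.20. The Ercc1 probe set read 49.8 to 65.9 in KO and 175.2 to 222.6 in WT hippocampus, and 55.9 to 70.3 in KO and 115.2 to 223.4 in WT cerebellum, so every KO array lay below every WT array of its region. The labels do not say where this probe set lies relative to the disruption. Few defining neuron markers of the regions could be named. Neurod1, a transcription factor of cerebellar granule cells and hippocampal dentate neurons, read 7183 to 7701 in KO and 6996 to 7742 in WT cerebellum, and 1571 to 1753 in KO and 1168 to 1346 in WT hippocampus, in tables that may have been scaled separately.

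Gene names came only from the deposited lists, which the authors chose by comparing KO with WT on these arrays. Trp53inp1 stands in the lists of both regions, and Phlda3 in that of cerebellum alone. The authors' deposited table gives Trp53inp1 a fold change of 1.29 (unadjusted p = 0.004469) for hippocampus. For cerebellum the authors' deposited table gives Trp53inp1 a fold change of 1.35 (unadjusted p = 0.01266) and Phlda3 one of 1.37 (unadjusted p = 0.047294). The values of Trp53inp1 in both regions and of Phlda3 in cerebellum are therefore descriptions of a difference that led to the genes being named. The values of Phlda3 in hippocampus had no part in that choice.

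Trp53inp1 was higher in KO in both regions. In hippocampus its intensity was 772.8, 833.2 and 817.4 on the KO arrays, against 621.9, 615.4 and 644.9 on the WT arrays. The KO arrays all lay above the WT arrays, with a gap of 127.8 between the nearest 2, and the groups were tight. The means were 807.8 ± 31.4 on KO arrays and 627.4 ± 15.5 on WT arrays (SD, n = 3 each), a ratio of 1.29. On the scale of log2(intensity + 32) the difference was 0.35 ± 0.09 (SE), with a 95% interval from 0.15 to 0.55. In a dissected region, fewer or more cells of a type cannot be told apart from less or more RNA per cell, here and for every value below.

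In cerebellum Trp53inp1 read 611.3, 621.4 and 574.0 on the KO arrays and 489.0, 447.3 and 397.3 on the WT arrays. Again the groups did not overlap, although the WT arrays were more spread than in hippocampus. The means were 602.2 ± 25.0 on KO arrays and 444.5 ± 45.9 on WT arrays (SD, n = 3 each), a ratio of 1.35. The log2 difference was 0.42 ± 0.10 (SE, 95% interval 0.17 to 0.66). Without KO replicate 1, the array with the high Gapdh ratio, it was 0.41.

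Phlda3 was lower in KO hippocampus and higher in KO cerebellum. In hippocampus its intensity was 752.5, 742.7 and 828.5 on the KO arrays, against 974.7, 1052.8 and 836.8 on the WT arrays. The groups did not overlap, but KO replicate 3 and WT replicate 3 were only 8.33 apart. The means were 774.6 ± 47.0 on KO arrays and 954.8 ± 109.4 on WT arrays (SD, n = 3 each), a ratio of 0.811. The log2 difference was -0.29 ± 0.11 (SE, 95% interval -0.55 to -0.02).

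In cerebellum Phlda3 read 611.6, 601.0 and 581.0 on the KO arrays and 511.6, 381.6 and 412.2 on the WT arrays. The KO arrays lay close together and above all WT arrays, of which WT replicate 1 was the highest. The means were 597.9 ± 15.6 on KO arrays and 435.1 ± 67.9 on WT arrays (SD, n = 3 each), a ratio of 1.37. The log2 difference was 0.44 ± 0.12 (SE, 95% interval 0.16 to 0.72), and 0.43 without KO replicate 1.

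**Figure D1:**
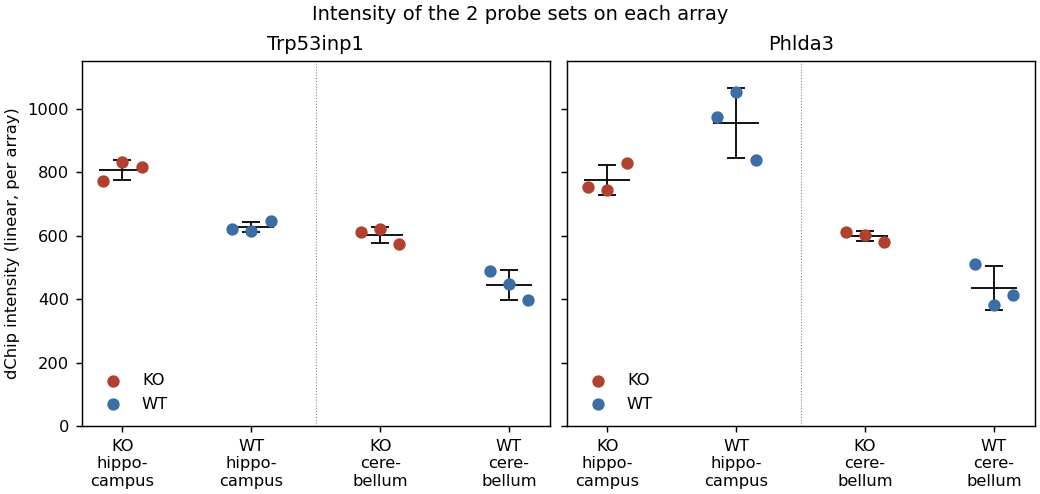
Linear dChip intensity (y axis, from 0) of Trp53inp1 and Phlda3 on each of the 12 arrays, by region and genotype. Points are arrays, and the bars are the mean and SD of 3 arrays. KO lies above WT in both regions for Trp53inp1, and for Phlda3 below WT in hippocampus and above it in cerebellum.

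None of these 4 differences passed the test across all probe sets, limma with Benjamini-Hochberg adjustment at 0.05 over 27022 probe sets in each region. In hippocampus the adjusted p was 0.99992 for both genes, and in cerebellum it was 0.711 for Trp53inp1 and 0.811 for Phlda3. The background was 0.0% of probe sets called in hippocampus (0 of 27022, smallest adjusted p 0.141) and 0.0% in cerebellum (0 of 27022, smallest adjusted p 0.0603). The smallest in hippocampus was that of Ercc1, so the disrupted gene itself did not pass there either. At an unadjusted limma p under 0.05, 1.53% of probe sets were higher in KO hippocampus and 2.18% lower. In cerebellum 2.82% were higher in KO and 1.51% lower. The unadjusted limma p was 0.00435 for Trp53inp1 in hippocampus, rank 102 of 27022, and 0.00446 in cerebellum, rank 168. It was 0.0360 for Phlda3 in hippocampus, rank 732, and 0.00691 in cerebellum, rank 230. Leaving out 1 array at a time took the limma p of Phlda3 in hippocampus above 0.05 in 4 of 6 fits, up to 0.116 without WT replicate 2. The exact permutation p, two-sided, was 0.1 for each of the 4, the smallest that 3 against 3 arrays allow.

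Separation of KO from WT arrays is itself frequent among the probe sets. In hippocampus 4.48% of probe sets had every KO array above every WT array, as Trp53inp1 did, and 4.44% had every KO array below, as Phlda3 did. In cerebellum 5.3% had every KO array above, as both genes did. Of the 23283 probe sets tested in both regions, 0.825% (192) had the order of Trp53inp1, higher on every KO array in both. The order of Phlda3, lower on every KO array in hippocampus and higher on every one in cerebellum, was met by 0.185% (43). In size, the hippocampus difference of Trp53inp1 exceeded those of 97.1% of probe sets and that of Phlda3 those of 95.02%. In cerebellum these shares were 98.3% for Trp53inp1 and 98.6% for Phlda3. The median log2 difference over all probe sets was 0.0071 in hippocampus and -0.02 in cerebellum.

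**Figure D2:**
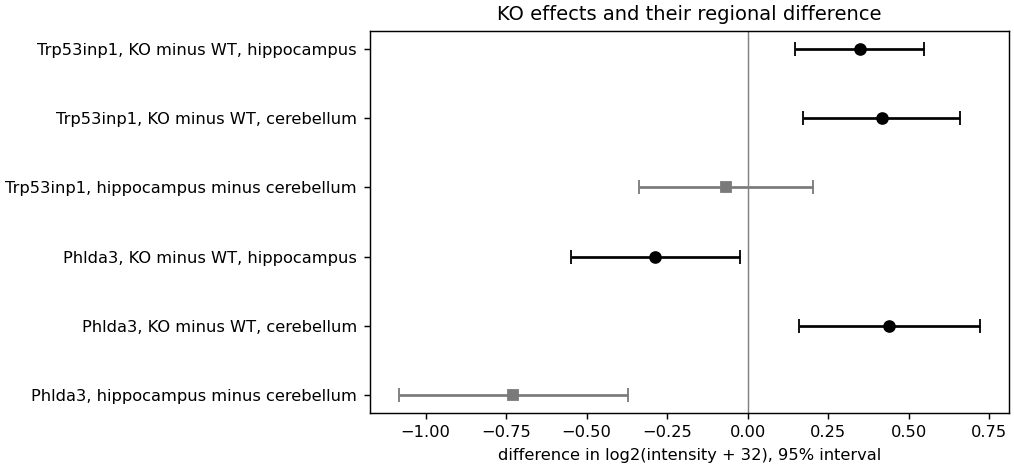
Differences in log2(intensity + 32), x axis, for Trp53inp1 and Phlda3. Circles are KO minus WT in each region, squares the hippocampus difference minus the cerebellum difference, and bars the 95% intervals from limma. The interval of the regional difference spans 0 for Trp53inp1 and lies below 0 for Phlda3.

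The KO effects of the regions were compared in 1 limma fit over all 12 arrays, taken as independent. The labels do not say whether the same mice gave both regions. For Trp53inp1 the hippocampus effect minus the cerebellum effect was -0.07 ± 0.12 (SE, 95% interval -0.34 to 0.20, unadjusted p = 0.593, adjusted p = 0.99992). For Phlda3 it was -0.73 ± 0.16 (SE, 95% interval -1.08 to -0.37, unadjusted p = 0.000846), rank 17 of 23283 probe sets by p. It did not pass after adjustment over those probe sets (adjusted p = 0.869), of which 0.00429% (1) passed and 3.14% had an unadjusted p under 0.05. Its cerebellum part is the contrast by which Phlda3 came to be named. With same-numbered arrays of a genotype taken as 1 mouse, the unadjusted limma p of this difference was 0.00237. Within the 2 sides of the hippocampus arrays, the Phlda3 difference was -0.29 with KO 1, KO 3 and WT 1, and -0.33 with KO 2, WT 2 and WT 3. For Trp53inp1 the same 2 sides gave 0.34 and 0.39. The first component of the cerebellum arrays carried 41.2% of their variance and put KO 1, WT 1 and WT 3 against KO 2, KO 3 and WT 2. On these sides the Phlda3 difference was 0.39 and 0.59, and that of Trp53inp1 0.44 and 0.39. Each side holds 1 genotype with a single array, and since the groups do not overlap the sign within a side was fixed beforehand.

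Set side by side over the 4 groups, both genes were lowest in WT cerebellum. For Trp53inp1 the order of the mean intensities was KO hippocampus, WT hippocampus, KO cerebellum and WT cerebellum. Of the neighbours in this order, only WT hippocampus and KO cerebellum overlapped. For Phlda3 it was WT hippocampus, KO hippocampus, KO cerebellum and WT cerebellum, with no overlap between neighbours. Because the region tables may have been scaled separately, levels were not tested between regions.

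Genes named through the cerebellum list alone give a setting for Phlda3. There were 194 such genes with higher values in KO cerebellum, each by its brightest named probe set. Genes that the hippocampus list also held were left out, so hippocampus values had a part in forming this set. The shares below are therefore descriptions. Of the 194 genes, 65 (33.5%) had lower values in KO hippocampus, against 47.4% of all probe sets tested there. The median log2 difference of the 194 in hippocampus was 0.06. In 9 of the 194, Phlda3 among them, every KO hippocampus array lay below every WT array, a share of 4.64% that is near the 4.44% of all probe sets. The hippocampus difference was as low as that of Phlda3 or lower in 10 of them, Phlda3 included, or 5.15%, against 2.81% of all probe sets. Trp53inp1 is 1 of 26 genes that stand in both lists, of which 22 were higher in KO in both regions, 3 lower in both and 1 opposite.

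**Figure D3:**
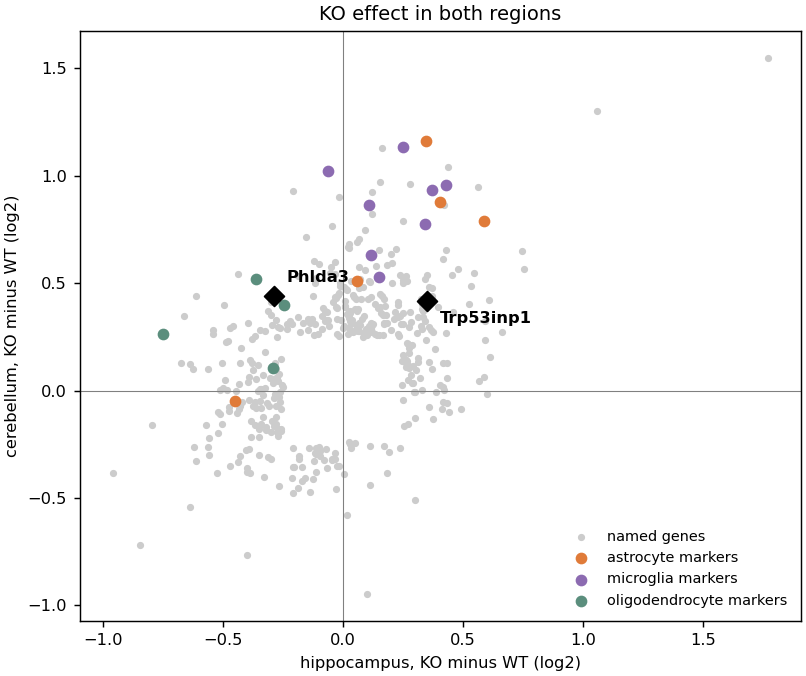
Log2 difference KO minus WT in hippocampus (x axis) and cerebellum (y axis) for the 452 named genes measured in both regions. Grey points are genes named in the authors' lists, which leave the centre empty because they were chosen for a difference, and colours mark cell type markers. Trp53inp1 (0.35 and 0.42) lies among genes higher in both regions. Phlda3 (-0.29 and 0.44) lies near the oligodendrocyte markers Mobp (-0.25 and 0.40) and Mal (-0.36 and 0.52). The oligodendrocyte markers Ermn (-0.75 and 0.26) and Mbp (-0.29 and 0.11) lie further from it. Genes of no marker list, such as Tmem125 (-0.30 and 0.35), are also near Phlda3.

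For the rest of the pathway, names exist only for genes in the authors' lists. Of the 51 other targets and regulators of p53, 3 were measured in hippocampus and 2 in cerebellum, all with higher values in KO and 0 past the test. Igfbp3, which binds insulin-like growth factors, had a log2 difference of 0.59 ± 0.11 in hippocampus and 0.24 ± 0.13 in cerebellum (SE, n = 3 per group). Its KO and WT arrays overlapped in cerebellum. Bid, a death protein of the Bcl-2 family, had 0.25 ± 0.10 in hippocampus and was too dim in cerebellum. Abhd4, a lipase of N-acyl phospholipids, had 0.11 ± 0.12 in hippocampus with overlapping groups and 0.43 ± 0.09 in cerebellum. Of these, Igfbp3 and Bid in hippocampus and Abhd4 in cerebellum were in the authors' list of that region. The classical p53 targets Cdkn1a, Mdm2 and Ccng1 are not analysed here, since no probe set could be paired with them.

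Around the 2 proteins the picture was as sparse. Of 18 genes of the Trp53inp1 family and autophagy, only Lamp2 of the lysosomal membrane was measured, at 0.12 ± 0.14 in hippocampus and 0.44 ± 0.11 in cerebellum. Of 22 genes of the Phlda family and the Akt pathway 2 were measured. Pik3ip1, an inhibitor of the lipid kinase upstream of Akt, had 0.39 ± 0.12 in hippocampus and -0.0066 ± 0.13 in cerebellum. Foxo1, a transcription factor that Akt keeps out of the nucleus, had 0.06 ± 0.09 in hippocampus and 0.31 ± 0.10 in cerebellum. Of 16 genes of senescence and cell cycle exit only the cyclin gene Ccnd1 was measured, at -0.52 ± 0.15 in hippocampus and -0.10 ± 0.11 in cerebellum. Of 33 DNA repair genes only Ercc1 itself entered the test, in hippocampus alone, since its probe set was too dim in cerebellum. None of these genes passed the test (0 in either direction).

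To find the genes that followed each of the 2 most closely, the mean of its region was subtracted from every log2 value, and Pearson's r was taken over the 12 arrays against 451 named genes. These correlations are descriptions: the arrays share genotype and region, and the genes were listed for a difference between KO and WT. Trp53inp1 and Phlda3 themselves had r = 0.30, at rank 253 of 451 seen from Trp53inp1 and 256 seen from Phlda3.

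The genes most like Trp53inp1 were higher in KO in both regions. They were Sult1a1, a sulfotransferase for phenols (r = 0.98), St6gal1, which adds sialic acid to glycoproteins (r = 0.94), and Aldoc, the aldolase of astrocytes and Purkinje cells (r = 0.94). Next came Pnpla7, a lysophospholipase (r = 0.94), and Nqo1, a quinone reductase (r = 0.93). Sult1a1 read 608.2, 702.9 and 592.2 on KO arrays and 250.6, 309.4 and 305.6 on WT arrays of hippocampus. In cerebellum it read 368.5, 445.2 and 294.8 on KO arrays and 151.4, 131.7 and 106.2 on WT arrays. In cerebellum Sult1a1 and Trp53inp1 put the 6 arrays in the same order, from KO 2, KO 1 and KO 3 to WT 1, WT 2 and WT 3. In hippocampus their orders differed within both genotypes. With the mean of each of the 4 groups removed, so that only the spread between replicates was left, r was 0.76 for Sult1a1, 0.65 for St6gal1, 0.33 for Aldoc, 0.50 for Pnpla7 and 0.68 for Nqo1.

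The genes most like Phlda3 had lower means in KO hippocampus and higher ones in KO cerebellum. They were Tmem125, a membrane protein gene (r = 0.95), Sh3gl3, an endophilin (r = 0.93), Elovl1, which elongates very long chain fatty acids (r = 0.93), the long noncoding RNA Cerox1 (r = 0.92) and Mobp, a protein of compact myelin (r = 0.90). Tmem125 read 376.6, 343.5 and 357.7 on KO arrays and 442.6, 531.6 and 383.6 on WT arrays of hippocampus. In cerebellum it read 364.3, 357.6 and 328.3 on KO arrays and 313.4, 243.6 and 249.98 on WT arrays. In cerebellum Tmem125 and Phlda3 put the 6 arrays in the same order, from KO 1, KO 2 and KO 3 to WT 1, WT 3 and WT 2. In hippocampus the WT arrays were in the same order and the KO arrays were not. With the group means removed, r was 0.89 for Tmem125, 0.88 for Sh3gl3 and 0.88 for Elovl1, 0.73 for Cerox1 and 0.77 for Mobp.

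**Figure D4:**
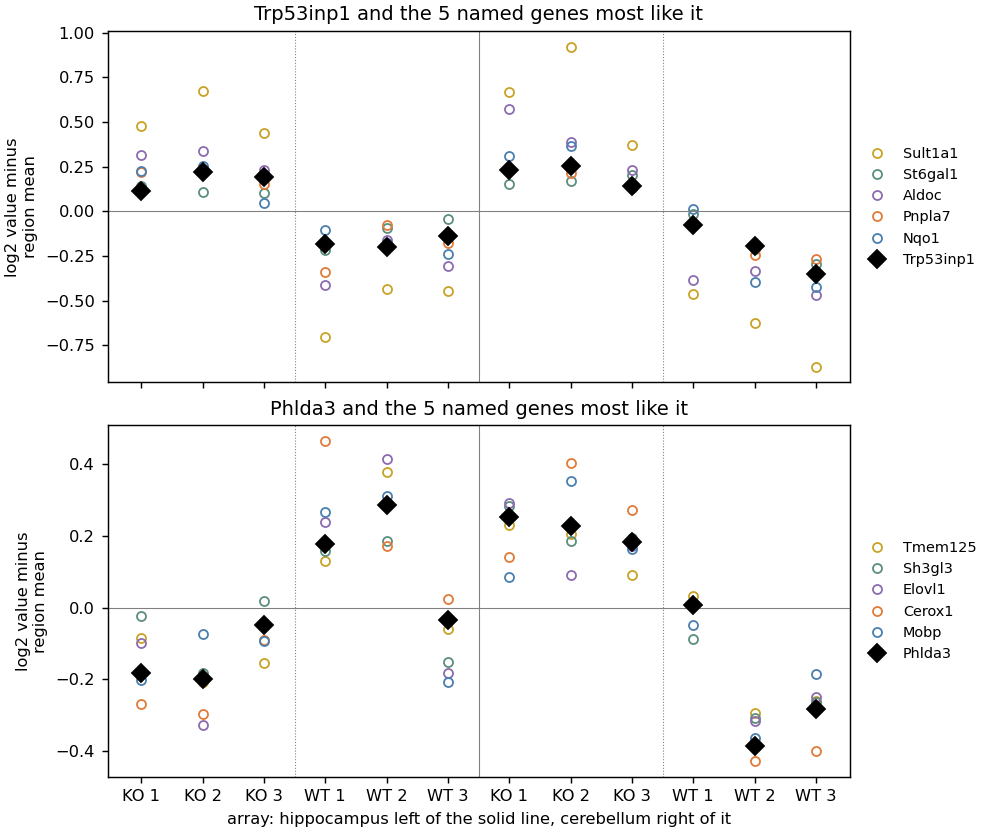
Log2(intensity + 32) minus the mean of the region's 6 arrays (y axis) on each of the 12 arrays (x axis). Black diamonds are Trp53inp1 (top) and Phlda3 (bottom), and open circles the 5 named genes with the highest r to it. The array of WT replicate 3 in hippocampus is the lowest of the WT arrays there for Phlda3, as it is for Tmem125 and Mobp.

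The resemblance of Phlda3 to Mobp was set beside the whole list of oligodendrocyte markers. Of 13 markers 4 could be named and measured (Ermn, Mal, Mbp and Mobp). The authors' list of cerebellum held 3 of them (Ermn, Mal and Mobp, higher in KO) and that of hippocampus 1 (Mbp, lower in KO). Those differences led to the markers being named, so much of a likeness to Phlda3 was fixed beforehand. Mobp had also been picked by its r with Phlda3. The r with Phlda3 was 0.72 for Ermn, 0.87 for Mal, 0.37 for Mbp and 0.90 for Mobp. The median of the 4 was 0.79, against 0.36 over all 451 genes. With Trp53inp1 the median of the 4 was 0.04, against 0.46 over all genes. Their summed intensity was 11606 to 12111 in KO and 12273 to 17365 in WT hippocampus, and 11054 to 13215 in KO and 8262 to 9563 in WT cerebellum. The sum was thus lower on every KO array in hippocampus and higher on every KO array in cerebellum, the same order as Phlda3. Among single probe sets, 4.44% were lower on every KO array in hippocampus and 5.3% higher on every one in cerebellum. Both held for 0.185%. In cerebellum 3 of the 4 markers were listed as higher in KO, so that part of the order was largely fixed beforehand. Single markers were less uniform, since KO and WT arrays overlapped for Mobp in hippocampus and for Mbp in cerebellum. Mobp and Mal made up most of the sum, with means of 5389 and 5255 in KO hippocampus, against 921 for Ermn and 288 for Mbp. In hippocampus WT replicate 3 had the lowest sum of the WT arrays (12273), as it had the lowest Phlda3. None of the 4 markers passed the test in either region (0 called), and with the group means removed their median r with Phlda3 was 0.50. For other lists this median was 0.43 (8 microglia markers), 0.13 (5 astrocyte markers), 0.48 (2 of fibroblasts and meninges) and -0.27 (2 of cerebellar neurons). For Alas2, the 1 red blood cell gene, r was 0.47. The 0.50 was thus not particular to oligodendrocyte markers. None of the 4 oligodendrocyte markers was at or near an intensity of 0, the lowest single value being 229.0. The part of oligodendrocyte number or RNA in the Phlda3 values was not tested.

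The median correlations of astrocyte and microglia markers with Trp53inp1 lay above the 0.46 of all named genes, but none of these markers passed the test in either region (0 called). Of 12 astrocyte markers 5 were measured, with a median r of 0.82 to Trp53inp1 and 0.41 to Phlda3. Of the 5, 4 were positive with Trp53inp1, and Aqp4, the water channel, had r = -0.60. Their summed intensity was 17925 to 18924 in KO and 17229 to 17553 in WT hippocampus, and 11991 to 13184 in KO and 8826 to 9930 in WT cerebellum. Of 16 microglia markers 8 were measured, all positive, with a median r of 0.84 to Trp53inp1 and 0.61 to Phlda3. Their sum was 12186 to 12743 in KO and 10189 to 11558 in WT hippocampus, and 4065 to 4464 in KO and 2021 to 2585 in WT cerebellum. The lowest single value was 438.2 for the astrocyte and 82.8 for the microglia markers. Each sum was higher on every KO array of its region, but single markers were less uniform. Glul had the largest mean of the 5 astrocyte markers in hippocampus, 8045 in KO and 7732 in WT. Its KO and WT arrays overlapped there, as did those of Gfap. In hippocampus every KO array was higher for 2 of the 5 astrocyte and 3 of the 8 microglia markers, while in cerebellum this held for 4 and 8. Over all probe sets the share was 4.48% in hippocampus and 5.3% in cerebellum. The 4 and 8 are the markers in the authors' list of cerebellum, so their order there was fixed by that choice. Aqp4 was lower on every KO array in hippocampus (log2 difference -0.45). With the group means removed, the median r with Trp53inp1 was 0.33 for astrocyte markers (lowest -0.11, Aqp4) and 0.46 for microglia markers (lowest 0.12, Tyrobp). The authors' list of cerebellum held 4 of the astrocyte and 8 of the microglia markers, and that of hippocampus 3 and 1. The part of these cells in the Trp53inp1 values was not tested.

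**Figure D5:**
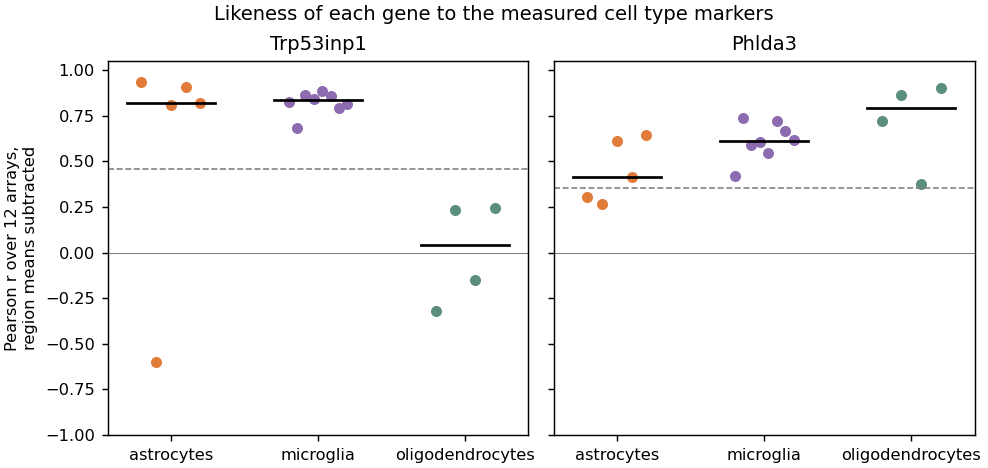
Pearson r over the 12 arrays, after the region means were subtracted (y axis), of Trp53inp1 (left) and Phlda3 (right) with each measured astrocyte, microglia and oligodendrocyte marker (points). Solid bars are medians of a list, and the dashed line is the median over all 451 named genes. Oligodendrocyte markers lie highest for Phlda3 (median 0.79) and lowest for Trp53inp1 (median 0.04).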

How the data were processed

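RNA was hybridised to 12 arrays, 1 sample each. The authors deposited a linear intensity for each probe set on each array, computed with dChip per the series' design text, which names neither its version nor how arrays were normalized. The matrix of all arrays equals the deposited region tables (largest difference 0), no pair of arrays held identical values (0) and 0 sample columns were left unused. The authors also deposited a list per region with a gene name, a signed fold change, a score that is negative where KO is lower, and an unadjusted p-value. Of 610 listed probe sets 538 had 1 current symbol (486 genes) after updating with the RefSeq table of GRCm38.p6, used for names.

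Values were analysed as log2(intensity + 32), which understates changes of dim probe sets. Probe sets above the 40th percentile of mean log2 value in a region entered limma 3.58.1 in R 4.3.3 (lmFit, eBayes with trend). The regional contrast used all 12 arrays. The fits were tested on simulated data first. Where a gene had several named probe sets, the brightest was taken. Always named were Trp53inp1, Phlda3 and Ercc1; then measured genes of the pathway lists, at most 6 per list by smallest p; then the 5 genes with the highest r to each. The members, lists and rules were chosen with earlier results of these data known. Marker correlations, correlations with group means removed, the sides of the first component and the residual component were added after seeing the data. Alternatives changed the pseudocount, filter, normalization, trend, arrays in the fit, block and each array in turn. Other steps ran in Python 3.11.15 with SciPy 1.17.1, pandas 2.3.3, matplotlib 3.10.9 and NumPy 2.4.6. The labels speak of 3 KO and 3 WT littermates, and p-values cover only the spread among these arrays. One marker result is not reported here.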

Additional observations from a re-analysis of the deposited data

Results flagged for a closer look

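The KO effect on Phlda3 had opposite signs in the regions. Every KO array lay below every WT array in hippocampus and above every WT array in cerebellum, an order met by 0.185% of 23283 probe sets. In hippocampus 4.44% of probe sets had every KO array below, and in cerebellum 5.3% had every KO array above. The nearest KO and WT arrays of hippocampus were only 8.33 apart for Phlda3. Leaving out 1 array took its unadjusted limma p in hippocampus above 0.05 in 4 of 6 fits. The difference, hippocampus minus cerebellum, was -0.73 on the log2 scale, and it did not pass the limma test of the difference over all probe sets (adjusted p = 0.869). The cerebellum part of this difference is the contrast by which the gene was listed.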

How the results depend on the processing

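With 3 arrays per group no alternative took any KO effect of Trp53inp1 or Phlda3, or its regional difference, past the threshold. The lowest adjusted p was 0.187 and 0.395 for Trp53inp1 and Phlda3 in hippocampus (residual component as a covariate). In cerebellum it was 0.181 (Trp53inp1, 1 fit over all arrays) and 0.363 (Phlda3, without WT replicate 1). For the Phlda3 regional difference it was 0.307. With single arrays left out, Trp53inp1 ranged over 0.33 to 0.38 (hippocampus) and 0.34 to 0.48 (cerebellum). Phlda3 ranged over -0.38 to -0.22 (hippocampus, the smaller size without WT replicate 2) and 0.36 to 0.55 (cerebellum), and its regional difference over -0.84 to -0.64. The regional difference of Trp53inp1 lay between -0.13 and 0.0054, above 0 without cerebellum WT replicate 3; it is near 0 in all fits, and the cause was not tested.

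Counts of probe sets called, 0 in each region and 1 for the regional difference, moved as follows. A single fit over all arrays gave 6 in hippocampus and 34 in cerebellum, and the residual component 8 and 2. The filter at the 60th percentile gave 1 in cerebellum. With single arrays left out the counts were 0 to 4 in hippocampus, 0 to 3 in cerebellum and 0 to 4 for the regional difference. The count for the regional difference was 2 with a pseudocount of 16, and 0 without a filter, with quantile normalization and without a trend. It was also 0 with the mouse as a block, where same-numbered arrays of a genotype were assumed to be 1 mouse. The causes were not tested.

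With the replicate number as a block, which in this balanced design cannot move the estimates (such as -0.29 for Phlda3 in hippocampus), 0 probe sets were called in each region and 1 for the regional difference. The unadjusted limma p of Phlda3 in hippocampus was 0.0627 with the block, against 0.0360 without it. The labels do not say whether the numbers pair the arrays. Deviations of same-numbered KO and WT arrays correlated at 0.68, 0.31 and -0.50 in hippocampus and 0.06, 0.34 and -0.24 in cerebellum. So few arrays per genotype cannot decide whether they were paired.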

Other observations

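The order of Phlda3, lower on all KO arrays in hippocampus and higher on all in cerebellum, was met by 43 of 23283 probe sets (0.185%). Of the 43, 16 carried a gene entry of the deposited lists. Besides Phlda3 these were the oligodendrocyte genes Ermn and Mal (2 probe sets), the fatty acid desaturase gene Scd1, the retinoic acid hydroxylase gene Cyp26b1, the cytokine gene Il33, the calcium channel gene Cacna1a, the adhesion genes Cdh10 and Tenm2, and Cerox1, Tmem125, Ell2, Pitpnc1, Prickle1 and Rbms3. They are named after their values were seen, and no test was made on them.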
